A study of Homo sapiens with 27 samples.

Results

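The genes described here are 7 phosphatases of mitogen-activated protein (MAP) kinases from the dual-specificity phosphatase (DUSP) family: DUSP1, DUSP4, DUSP5, DUSP6, DUSP7, DUSP10 and DUSP16. They were taken by gene symbol from the 10470 genes of the deposited table, and all 7 were found there. RNA was measured with an amplicon panel in DLD1, 1 human colorectal carcinoma cell line. Cells were collected 72 h after they were given small interfering RNAs (siRNAs), short duplexes that degrade a chosen mRNA. The siRNAs targeted VPS37A, VPS37B and VPS37C, whose products are alternative subunits of ESCRT-I, a complex that directs ubiquitinated cargo such as activated growth factor receptors from endosomes to lysosomes. All 3 paralogs were targeted together in siVPS37ABC#1. They were targeted in pairs in siVPS37AB#1, siVPS37AC#1 and siVPS37BC#1, and singly in siVPS37A#1, siVPS37B#1 and siVPS37C#1. The reference cells received a mixture of non-targeting siRNAs (siCTRL#1) or were not transfected (NT). The shared ending #1 is left off below. Each of the 9 groups has 3 libraries, 27 in all, which the labels call biological replicates, and each replicate number is labelled as a batch holding 1 library of every group. A single siRNA sequence was used against each paralog, so loss of the target and any other effect of that sequence cannot be told apart.

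The MAP kinases ERK, JNK and p38 become active when a threonine and a tyrosine in their activation loop are phosphorylated, and DUSP phosphatases remove both phosphates. Several DUSP genes are transcribed in response to the kinases that their products switch off, which makes them negative feedback regulators. DUSP1, DUSP4 and DUSP5 encode nuclear enzymes made from inducible genes. DUSP6 and DUSP7 encode cytoplasmic enzymes selective for ERK. DUSP10 and DUSP16 encode enzymes that prefer JNK and p38. In colorectal carcinoma, transcripts of DUSP4 and DUSP6 are widely used as a readout of ERK output.

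Values are relative transcript abundances scaled to a library total of 1000000, called TPM here, and the sequencing depth is unknown. The targeted transcripts were low in the libraries meant to lack them. VPS37A averaged 0.32 to 0.53 TPM in the 4 groups that targeted it, against 5.80 TPM in siCTRL. VPS37B averaged 1.55 to 3.44 TPM in its 4 groups, against 46.4 TPM in siCTRL, and VPS37C 3.77 to 5.02 TPM in its 4 groups, against 17.5 TPM in siCTRL. Of 9 markers of colorectal epithelium 8 were in the table, and 7 of these averaged at least 10 TPM. Their summed level was 10105 to 11515 TPM in siVPS37ABC and 9376 to 10242 TPM in siVPS37AB, against 8320 to 9517 TPM in siCTRL and 8506 to 11516 TPM in NT, and its part in the results below was not tested. Of the markers of fibroblasts 1 of 6 was in the table, of leukocytes 2 of 6 and of endothelium 1 of 4, each under 10 TPM. The submitters' library descriptions end in a number that differs within groups. All NT and siCTRL libraries carry 88 (replicates 1 and 2) or 603 (replicate 3), and the other 2 libraries numbered 603 are replicate 3 of siVPS37B and of siVPS37C.

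In siVPS37ABC, 5 of the 7 phosphatase genes were higher than in siCTRL. The gene with the largest log2 change was DUSP5, which encodes the nuclear phosphatase specific for ERK, at 409.5 ± 26.3 TPM in siVPS37ABC and 83.4 ± 19.9 TPM in siCTRL (SD, n = 3 each). DUSP10, DUSP4, DUSP1 and DUSP16 followed in that order, with ratios of mean TPM between 2.03 and 3.80. DUSP6 and DUSP7, the cytoplasmic ERK phosphatases, did not pass the test. The test was limma's moderated test on log2(TPM + 1), fitted over all 27 libraries, with Benjamini-Hochberg adjustment over the 6458 genes that averaged at least 10 TPM and a threshold of 0.05 on the adjusted p. Changes on this scale understate those of genes with few TPM. In that comparison 13.6% of all tested genes were called higher and 8.32% lower, a split of 880 and 537 genes that was 765 and 753 under quantile normalization. DUSP4, at a mean of 3.90 TPM over all libraries, was tested in the same model without the minimum, where 13.0% of 10470 genes were called higher. The median log2 change of the 7 genes was 1.21, against 0.03 for all tested genes. The 7 genes were chosen with earlier results of these data known, so this contrast is descriptive and no test of the set. In bulk RNA, fewer cells that express a gene and less of its RNA per cell cannot be told apart.

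**Figure D1:**
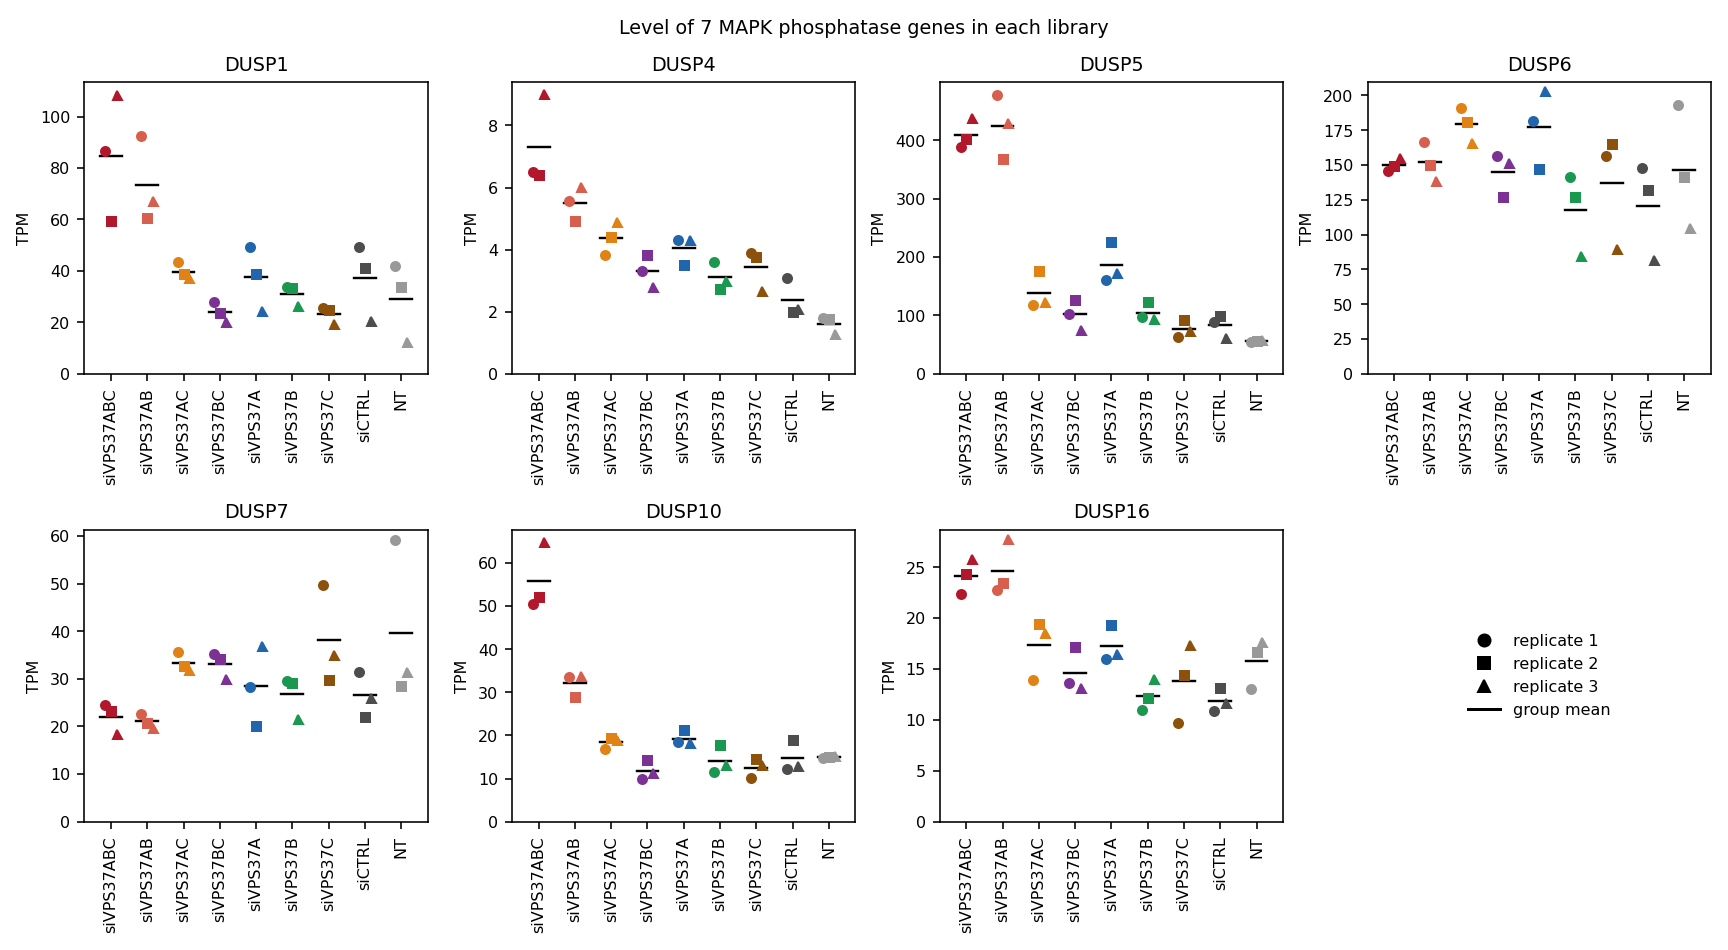
TPM (vertical axis) of each of the 7 phosphatase genes in all 27 libraries by group (horizontal axis), with a point for each library, its shape giving the replicate number, and a line at the group mean. DUSP5, DUSP10, DUSP1 and DUSP4 are highest in siVPS37ABC and siVPS37AB, whereas DUSP6 stays between 81.5 and 203 TPM across all groups and DUSP7 averages 22.1 TPM in siVPS37ABC and 39.7 TPM in NT.

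Sequences upstream of the annotated start are given for DUSP1, DUSP10 and DUSP16, since these genes were higher together in siVPS37ABC and siVPS37AB. RefSeq promoter entries on GRCh38.p14 were matched by symbol for 5 of the 7 genes, all but DUSP4 and DUSP5. The windows below hold the 250 bases before the start, 5′ to 3′ on the gene's strand, and for DUSP10, which has more than 1 listed start, the one farthest upstream. The strand is minus for all 3: DUSP1 at chr5:172771196-172771445, DUSP10 at chr1:221742090-221742339 and DUSP16 at chr12:12562864-12563113. Capitals mark matches to the cyclic AMP response element TGACGTCA or the E-box CACGTG.
DUSP1: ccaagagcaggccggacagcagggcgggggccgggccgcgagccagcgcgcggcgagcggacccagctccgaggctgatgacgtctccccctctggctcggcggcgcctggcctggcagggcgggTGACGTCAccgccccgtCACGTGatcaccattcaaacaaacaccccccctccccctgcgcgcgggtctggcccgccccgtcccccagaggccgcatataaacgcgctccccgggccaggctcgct
DUSP10: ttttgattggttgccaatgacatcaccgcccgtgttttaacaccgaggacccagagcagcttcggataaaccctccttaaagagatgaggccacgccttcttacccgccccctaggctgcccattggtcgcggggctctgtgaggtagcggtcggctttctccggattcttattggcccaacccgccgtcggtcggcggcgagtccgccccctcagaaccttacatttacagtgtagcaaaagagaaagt
DUSP16: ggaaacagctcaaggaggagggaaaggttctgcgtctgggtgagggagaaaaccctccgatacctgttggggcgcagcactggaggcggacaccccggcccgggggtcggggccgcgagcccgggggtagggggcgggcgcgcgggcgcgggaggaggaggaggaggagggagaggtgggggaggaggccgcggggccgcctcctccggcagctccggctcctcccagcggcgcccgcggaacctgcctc
In the DUSP1 window the response element lies 125 to 118 bases before the start and the E-box 108 to 103 bases before it. Both strands were searched, also for the AP-1 motif TGANTCA, the ETS core CCGGAA and the NF-kB motif, and the motifs do not overlap in this window. The DUSP10 and DUSP16 windows held none of the 5 motifs as spelled. Among 35116 windows of the same length, 1.65% held the cyclic AMP response element, 6.34% the E-box, 6.57% AP-1, 14.5% the ETS core and 9.96% the NF-kB motif. A match describes the letters of the window and is not evidence of binding.

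DUSP1 encodes a nuclear phosphatase of p38, JNK and ERK and is a classical immediate early gene. It stood at 86.4, 59.2 and 109 TPM in siVPS37ABC and at 92.5, 60.6 and 67.3 TPM in siVPS37AB, against 49.4, 41.2 and 20.7 TPM in siCTRL (replicates 1, 2 and 3). Every library of siVPS37ABC and siVPS37AB lay above every siCTRL library, and siCTRL replicate 3 was the lowest of its group. The log2 change was 1.21 ± 0.33 in siVPS37ABC (SE, adjusted p = 0.00834) and 1.03 ± 0.33 in siVPS37AB (adjusted p = 0.0334). Without siCTRL replicate 3 the change in siVPS37ABC was 0.85 and not called (adjusted p = 0.0823), where the adjusted p ranged from 0.00044 to 0.0823 over 13 alternatives. The change in siVPS37AB had an adjusted p between 0.00127 and 0.224 over 13 alternatives. It was not called without siCTRL replicate 3 (0.67, adjusted p = 0.224), siVPS37AB replicate 1 (0.85, adjusted p = 0.151) or siVPS37AB replicate 3 (1.08, adjusted p = 0.0652), nor under quantile normalization (0.96, adjusted p = 0.0686).

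DUSP4 encodes another inducible nuclear phosphatase, which acts on ERK and JNK. It was low in every library, at 6.49, 6.42 and 9.01 TPM in siVPS37ABC and 5.56, 4.91 and 6.01 TPM in siVPS37AB, against 3.09, 1.99 and 2.07 TPM in siCTRL. None of the siVPS37ABC or siVPS37AB libraries overlapped siCTRL. The log2 change was 1.29 ± 0.16 in siVPS37ABC (adjusted p = 2.27e-06) and 0.95 ± 0.16 in siVPS37AB (adjusted p = 0.000248). The ratio of mean TPM was 3.06 for siVPS37ABC over siCTRL and 2.30 for siVPS37AB over siCTRL, both larger than the log2 changes with the pseudocount imply.

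DUSP5 showed the widest range of the 7 genes, with a ratio of 7.55 between the highest and lowest group mean. It stood at 387, 402 and 439 TPM in siVPS37ABC and 478, 368 and 429 TPM in siVPS37AB, against 89.4, 99.5 and 61.2 TPM in siCTRL and 53.9, 56.5 and 58.4 TPM in NT. The 6 libraries of siVPS37ABC and siVPS37AB were the highest of all 27. In the remaining groups DUSP5 averaged 139 ± 32.8 TPM in siVPS37AC, 102 ± 25.6 TPM in siVPS37BC, 186 ± 34.3 TPM in siVPS37A, 104 ± 15.6 TPM in siVPS37B and 76.2 ± 15.3 TPM in siVPS37C (SD, n = 3 each). The log2 change was 2.31 ± 0.20 in siVPS37ABC (adjusted p = 5.65e-09) and 2.36 ± 0.20 in siVPS37AB (adjusted p = 1.22e-08). Both were called under each of 13 alternatives, with an adjusted p of at most 2.68e-05 in siVPS37ABC and 9.64e-05 in siVPS37AB.

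DUSP10 encodes a phosphatase of JNK and p38 that has little activity towards ERK. It stood at 50.4, 52.1 and 64.9 TPM in siVPS37ABC and 33.5, 29.0 and 33.8 TPM in siVPS37AB, against 12.2, 18.9 and 12.9 TPM in siCTRL. The libraries of these 3 groups formed separate ranges with no overlap. The other groups held 16.9 to 19.5 TPM (siVPS37AC), 9.89 to 14.3 TPM (siVPS37BC), 18.2 to 21.2 TPM (siVPS37A), 11.5 to 17.7 TPM (siVPS37B), 10.0 to 14.5 TPM (siVPS37C) and 14.8 to 15.3 TPM (NT), all below siVPS37AB. The log2 change was 1.87 ± 0.17 in siVPS37ABC (adjusted p = 1.67e-08) and 1.10 ± 0.17 in siVPS37AB (adjusted p = 8.39e-05).

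DUSP16, the other JNK and p38 phosphatase of the set, had 22.3, 24.3 and 25.8 TPM in siVPS37ABC and 22.8, 23.5 and 27.7 TPM in siVPS37AB, against 10.9, 13.1 and 11.6 TPM in siCTRL. Both knockdowns lay wholly above siCTRL and above NT, which had 13.0, 16.6 and 17.7 TPM. The log2 change was 0.97 ± 0.17 in siVPS37ABC (adjusted p = 0.000203) and 0.99 ± 0.17 in siVPS37AB (adjusted p = 0.000308). DUSP16 averaged 11.9 ± 1.11 TPM in siCTRL and 15.8 ± 2.45 TPM in NT (SD, n = 3 each), and the change against NT was 0.59 in siVPS37ABC (adjusted p = 0.0132) and 0.62 in siVPS37AB (adjusted p = 0.0135). These were the highest adjusted p values among the 13 alternatives of each comparison, and the lowest were 3.33e-06 and 4.09e-06.

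In siVPS37AB the same 5 genes as in siVPS37ABC were called higher, with 11.2% of all tested genes called higher, 3.61% called lower and, without the minimum used for DUSP4, 10.9% called higher. The split of 723 higher and 233 lower genes was 520 and 449 under quantile normalization. The median log2 change of the 7 genes was 0.99, against 0.07 for all tested genes, a contrast that is descriptive for the same reason as in siVPS37ABC. The comparisons with siCTRL share its 3 libraries, so their values stand side by side and are not independent.

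**Figure D2:**
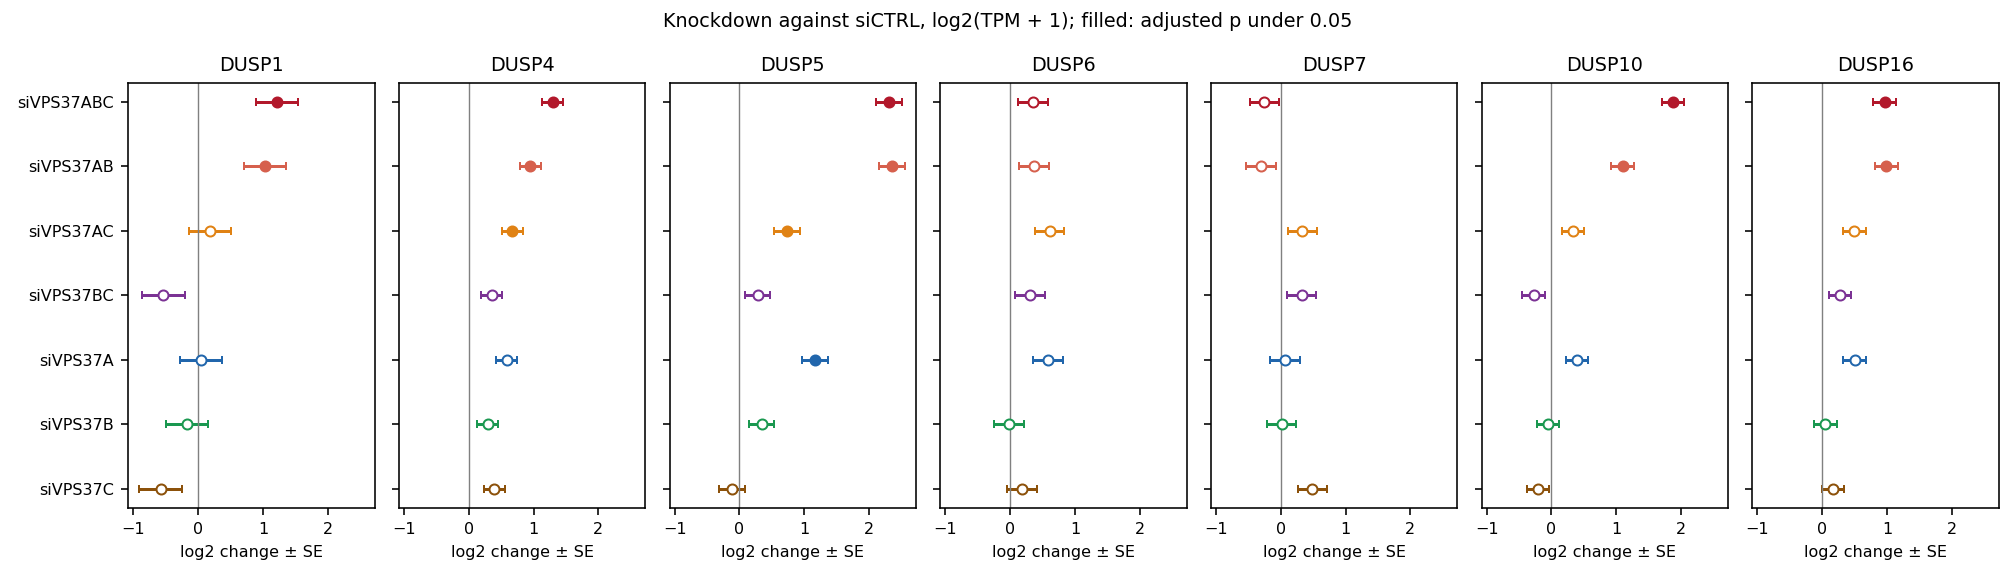
Log2 change from siCTRL with its standard error (horizontal axis) of each phosphatase gene in the 7 knockdown groups (vertical axis), filled where the adjusted p was under 0.05. DUSP5 lies at 2.31 in siVPS37ABC, 2.36 in siVPS37AB and 1.16 in siVPS37A, and DUSP6 and DUSP7 have no filled point.

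DUSP6 encodes the cytoplasmic ERK phosphatase that is a standard marker of ERK feedback. It had 145, 149 and 155 TPM in siVPS37ABC and 167, 150.0 and 139 TPM in siVPS37AB, against 148, 132 and 81.5 TPM in siCTRL and 193, 141 and 105 TPM in NT. The groups overlapped, and replicate 3 was the lowest library of both siCTRL and NT. The log2 change was 0.35 ± 0.23 in siVPS37ABC (95% interval -0.12 to 0.83, adjusted p = 0.296) and 0.37 ± 0.23 in siVPS37AB (95% interval -0.10 to 0.85, adjusted p = 0.312). The highest group means were 179 ± 12.7 TPM in siVPS37AC and 177 ± 28.2 TPM in siVPS37A (SD, n = 3 each). In siVPS37AC the log2 change of 0.61 ± 0.23 was not called (adjusted p = 0.143), and was called with the replicate number as a block (adjusted p = 0.0328). The adjusted p ranged from 0.0328 to 0.510 over 13 alternatives.

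The level of DUSP6 moved with the number ending the library description. The 4 libraries numbered 603, replicate 3 of siVPS37B, siVPS37C, siCTRL and NT, had 84.7, 89.7, 81.5 and 105 TPM. The other 23 libraries had 127 to 203 TPM, so the ranges do not overlap. DUSP1 in those 4 libraries was 26.4, 19.2, 20.7 and 12.3 TPM, within or below the range of 20.2 to 109 TPM in the other 23. With a term for this number in the model, the change of DUSP6 was 0.03 ± 0.15 in siVPS37ABC (adjusted p = 0.905) and 0.01 ± 0.17 in siVPS37AB (adjusted p = 0.984). The changes of DUSP1 with the term were 1.15 ± 0.22 in siVPS37ABC (adjusted p = 0.00044) and 1.27 ± 0.25 in siVPS37AB (adjusted p = 0.00127). Within number 88, where siVPS37ABC replicate 3 can be set against siCTRL replicates 1 and 2, the log2 difference was 1.25 for DUSP1, 1.52 for DUSP4, 2.21 for DUSP5, 2.02 for DUSP10 and 1.05 for DUSP16. It was 0.14 for DUSP6 and -0.50 for DUSP7. No siVPS37AB library shares a number with siCTRL, and what the number stands for was not tested.

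**Figure D3:**
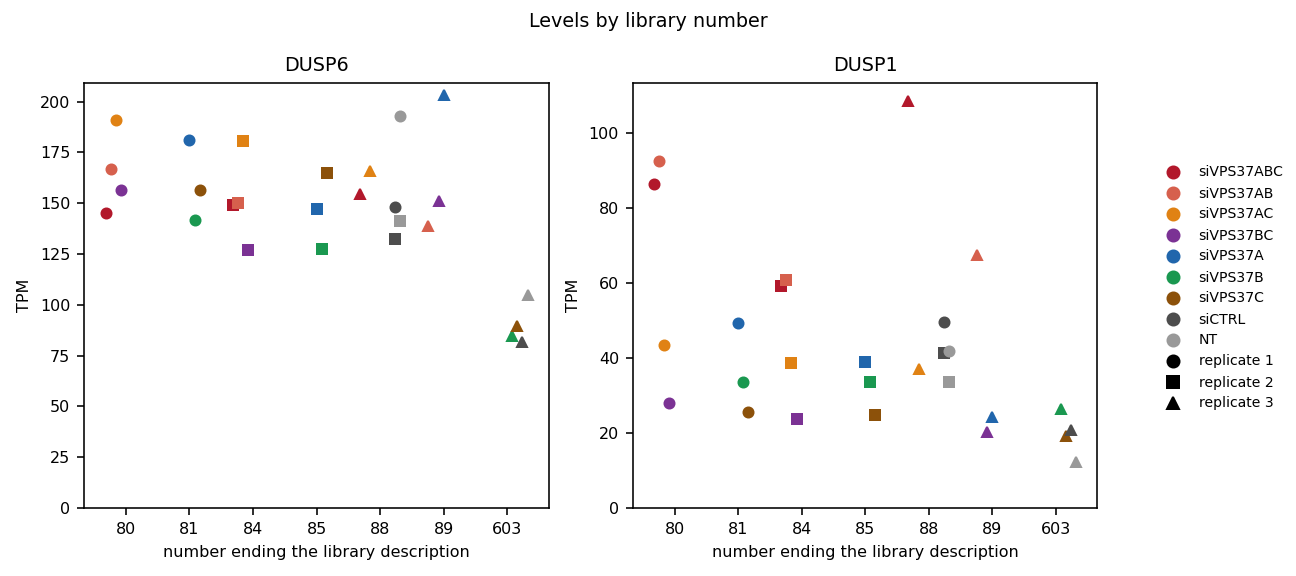
TPM (vertical axis) of DUSP6 and DUSP1 in each of the 27 libraries by the number ending the library description (horizontal axis), coloured by group with the replicate number as the shape. For DUSP6 the 4 libraries numbered 603 lie at 81.5 to 105 TPM, below the 127 to 203 TPM of the other 23.

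DUSP7 encodes the closest relative of DUSP6 in this set, also a cytoplasmic ERK phosphatase. It had 24.5, 23.3 and 18.4 TPM in siVPS37ABC and 22.6, 20.7 and 19.7 TPM in siVPS37AB, against 31.5, 22.1 and 26.0 TPM in siCTRL and 59.2, 28.4 and 31.4 TPM in NT. Both knockdowns overlapped siCTRL and lay below all NT libraries. The log2 change from siCTRL was -0.25 ± 0.23 in siVPS37ABC (95% interval -0.72 to 0.22, adjusted p = 0.467) and -0.31 ± 0.23 in siVPS37AB (95% interval -0.78 to 0.16, adjusted p = 0.408). With NT in place of siCTRL it was -0.75 (adjusted p = 0.0159) in siVPS37ABC and -0.81 (adjusted p = 0.0136) in siVPS37AB, both called lower. The adjusted p ranged from 0.0159 to 0.782 and from 0.0136 to 0.701 over 13 alternatives each.

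By the test above at most 2 of the 7 genes were called in each single knockdown and in the other pairs. At an unadjusted p under 0.05 limma gave 5 of the 7 in siVPS37A and 4 in siVPS37AC. Of all tested genes 13.2% and 17.6% passed the same limit in these 2 groups. In siVPS37A, DUSP5 alone was called higher, at 161, 225 and 173 TPM in siVPS37A against 89.4, 99.5 and 61.2 TPM in siCTRL (log2 1.16 ± 0.20, adjusted p = 0.00154), with 1.19% of all tested genes called higher. The split over all genes was 77 higher and 41 lower, and 48 and 59 under quantile normalization. DUSP5 stayed called under all 13 alternatives, with an adjusted p of at most 0.0456. With the replicate block DUSP4 (0.58 ± 0.16 without the block, adjusted p = 0.0701 and 0.0262 with it) and DUSP16 (0.50 ± 0.17, adjusted p = 0.166 and 0.0208 with the block) were also called, 3 genes in all. Of all 6458 tested genes 409 were called in either direction with the block, against 118 without it. DUSP4 was also called against NT and without siCTRL replicate 1 (adjusted p = 0.0486), and DUSP16 with the library number in the model (adjusted p = 0.0354). Over 13 alternatives the adjusted p ranged from 0.000792 to 0.272 for DUSP4 and from 0.0208 to 0.739 for DUSP16.

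In siVPS37AC, DUSP5 and DUSP4 were called higher, where 3.07% of all tested genes and, without the minimum, 2.59% were called higher. The split over all genes was 198 higher and 86 lower, and 114 and 126 under quantile normalization. DUSP5 had 118, 176 and 122 TPM in siVPS37AC against 89.4, 99.5 and 61.2 TPM in siCTRL (log2 0.73 ± 0.20, adjusted p = 0.0341). DUSP4 had 3.81, 4.40 and 4.89 TPM in siVPS37AC against 3.09, 1.99 and 2.07 TPM in siCTRL (log2 0.67 ± 0.16, adjusted p = 0.0192). Neither gene overlapped siCTRL, but this did not set them apart from the genes not called. Of the 7 genes 5 lay wholly above siCTRL, the others being DUSP6, DUSP7 and DUSP16. The share of all genes without overlap was not computed. The call of DUSP5 was lost without siCTRL replicate 1 (adjusted p = 0.0555), siCTRL replicate 3 (adjusted p = 0.185) or siVPS37AC replicate 2 (adjusted p = 0.226), and that of DUSP4 without siCTRL replicates 2 or 3 (adjusted p = 0.101 and 0.0816) or siVPS37AC replicates 2 or 3 (adjusted p = 0.0757 and 0.0941). Both calls were also lost with only these groups in the model (adjusted p = 0.0601 for DUSP5 and 0.0608 for DUSP4), and that of DUSP5 under quantile normalization (adjusted p = 0.0611). Over 13 alternatives the adjusted p ranged from 0.00015 to 0.226 for DUSP5 and from 0.000163 to 0.101 for DUSP4. With the replicate block 4 genes were called, adding DUSP6 and DUSP16 (0.50 ± 0.17, adjusted p = 0.105 and 0.0144 with the block). Of all 6458 tested genes 762 were called in either direction with the block, against 284 without it. DUSP16 was called with the library number in the model as well (0.68, adjusted p = 0.0082), and its adjusted p ranged from 0.0082 to 0.673.

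In siVPS37BC, siVPS37B and siVPS37C none of the 7 genes was called by limma, where 1.29%, 1.72% and 0.496% of all tested genes were called in either direction. In siVPS37C the split over all genes was 7 higher and 25 lower, and 13 and 27 under quantile normalization. At an unadjusted p under 0.05 the counts were 1 of 7 in siVPS37BC, 0 in siVPS37B and 2 in siVPS37C, where 12.4%, 16.1% and 8.08% of all tested genes passed the same limit in these groups. Against NT, DUSP4 was called in all 3 groups (0.65 to 0.75) and DUSP5 in siVPS37BC (0.81) and siVPS37B (0.87). Calls against NT were also more frequent over all 6458 tested genes. They numbered 358 in siVPS37BC, 267 in siVPS37B and 358 in siVPS37C, in either direction. No such count was made without the minimum used for DUSP4. The means of DUSP5 in these groups lay between 76.2 and 104 TPM, against 83.4 TPM in siCTRL. DUSP1 averaged 23.9 ± 3.86 TPM in siVPS37BC and 23.2 ± 3.49 TPM in siVPS37C, against 37.1 ± 14.8 TPM in siCTRL (SD, n = 3 each). Its log2 changes of -0.54 (95% interval -1.21 to 0.14) and -0.58 (95% interval -1.25 to 0.10) did not pass.

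None of the 7 genes was called between siCTRL and NT, where 3.17% of all tested genes were called in either direction. Over all genes 65 were higher and 140 lower in siCTRL, and 102 and 135 under quantile normalization. An unadjusted p under 0.05 was found for 4 of the 7 and for 17.1% of all tested genes. The largest log2 difference was that of DUSP5, at 0.53 ± 0.20 (83.4 TPM in siCTRL and 56.3 TPM in NT, adjusted p = 0.159). With the replicate block it was called (adjusted p = 0.0418), as it was with the library number in the model, and the adjusted p ranged from 0.0416 to 0.439 over 12 alternatives. Every siCTRL library lay above every NT library, and the change of DUSP5 from NT was 2.84 in siVPS37ABC and 2.89 in siVPS37AB. For DUSP4, too, every siCTRL library lay above every NT library. By mean TPM DUSP1 was also higher in siCTRL, while DUSP6, DUSP7, DUSP10 and DUSP16 were lower. DUSP7 averaged 26.5 TPM in siCTRL and 39.7 TPM in NT.

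Setting siVPS37ABC against each pair shows which genes differed once the third paralog was also targeted. Against siVPS37AB, DUSP10 alone was called, where 0.356% of all tested genes were called higher. Over all genes 23 were higher and 44 lower, and 41 and 33 under quantile normalization. The log2 difference of DUSP10 was 0.77 ± 0.17 (adjusted p = 0.0211), with every siVPS37ABC library above every siVPS37AB library. Within library numbers that both groups share the difference was 0.58 (number 80) and 0.83 (number 84), 1 library of each group per number. The call was lost without siVPS37AB replicates 1, 2 or 3 (adjusted p = 0.0584, 0.144 and 0.0625) or siVPS37ABC replicates 2 or 3 (adjusted p = 0.0548 and 0.135), and with only these groups in the model (adjusted p = 0.0586). The adjusted p ranged from 0.0017 to 0.144 over 12 alternatives. DUSP5 differed by -0.05 ± 0.20 (95% interval -0.45 to 0.36) and DUSP16 by -0.03 ± 0.17 (95% interval -0.38 to 0.33). DUSP1 differed by 0.18 ± 0.33 and DUSP4 by 0.34 ± 0.16, neither called. For DUSP4, too, every siVPS37ABC library lay above every siVPS37AB library.

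Against siVPS37AC, DUSP5 (1.58 ± 0.20, adjusted p = 2.60e-05), DUSP10 (1.54 ± 0.17, adjusted p = 5.34e-06) and DUSP4 (0.62 ± 0.16, adjusted p = 0.0247) were higher in siVPS37ABC, where 2.46% of all tested genes and, without the minimum, 2.67% were called higher. DUSP4 lost its call without siVPS37ABC replicate 3 (adjusted p = 0.119) or siVPS37AC replicates 1 or 2 (adjusted p = 0.136 and 0.0641), and with only these groups in the model (adjusted p = 0.0843), with a range of 0.00455 to 0.136 over 12 alternatives. With the replicate block 789 of all 6458 tested genes were called in either direction, against 281 without it. Of the phosphatase genes 6 were called with the block. These added DUSP1 (1.03 ± 0.33, adjusted p = 0.0694 and 0.00754 with the block), DUSP16 (0.47 ± 0.17, adjusted p = 0.135 and 0.0204 with the block) and, lower in siVPS37ABC, DUSP7 (-0.58 ± 0.23, adjusted p = 0.152 and 0.0369 with the block). DUSP1 was also called with the library number in the model, with a pseudocount of 8 and with only these groups in the model, and DUSP16 with the library number (adjusted p = 0.0272). Their adjusted p ranged over 12 alternatives from 0.000638 to 0.185 for DUSP1, from 0.0204 to 0.477 for DUSP16 and from 0.0369 to 0.373 for DUSP7. DUSP6 was not called, at 145 to 155 TPM in siVPS37ABC and 166 to 191 TPM in siVPS37AC.

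Against siVPS37BC, 5 of the 7 genes were higher in siVPS37ABC, where 7.46% of all tested genes and, without the minimum, 7.13% were called higher. The split of 482 higher and 294 lower genes was 453 and 427 under quantile normalization. The log2 differences were 2.15 ± 0.17 for DUSP10, 2.03 ± 0.20 for DUSP5, 1.75 ± 0.33 for DUSP1, 0.94 ± 0.16 for DUSP4 and 0.69 ± 0.17 for DUSP16. Their adjusted p ran from 7.14e-09 for DUSP10 to 0.00873 for DUSP16, and all 5 were called under each of 12 alternatives. DUSP7 was at -0.57 ± 0.23, with all siVPS37ABC libraries below those of siVPS37BC (adjusted p = 0.106), and was called with the replicate block (adjusted p = 0.027) and with only these groups in the model (adjusted p = 0.045). Its adjusted p ranged from 0.027 to 0.314 over 12 alternatives. DUSP6 differed by 0.05 ± 0.23 (95% interval -0.42 to 0.53).

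**Figure D4:**
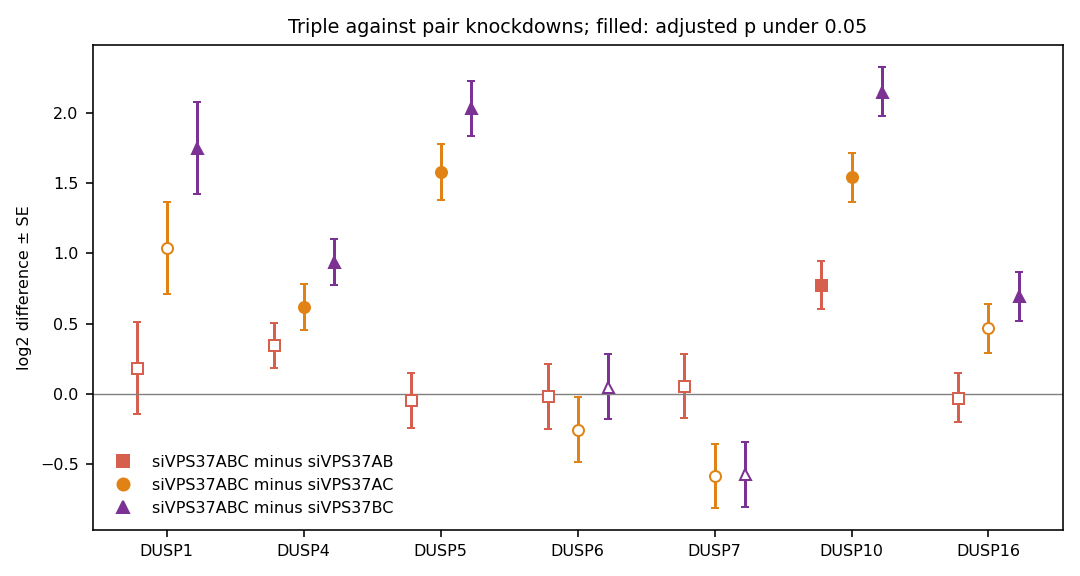
Log2 difference with its standard error (vertical axis) of each phosphatase gene (horizontal axis) between siVPS37ABC and each pair knockdown, filled where the adjusted p was under 0.05. Against siVPS37AB only DUSP10, at 0.77, is filled, and against siVPS37BC 5 genes are.

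The combined knockdowns were also set against the sum of the single ones, on the log2 scale. By the test above, which has no replicate block, no gene departed from the sum in siVPS37AB or in siVPS37ABC at an adjusted p under 0.05. This is 0% and 0% of all tested genes. With the replicate block genes were called in both departures, in the numbers given in the last section. Without it limma gave 483 and 449 genes at an unadjusted p under 0.05, or 7.48% and 6.95%. Of the 7 phosphatase genes, DUSP1, DUSP5 and DUSP10 had an unadjusted p under 0.05 in both. In siVPS37AB the departures were 1.15 ± 0.46 for DUSP1, 0.85 ± 0.28 for DUSP5 and 0.76 ± 0.24 for DUSP10, each positive in 3 of 3 replicates. In siVPS37ABC they were 1.91 ± 0.65 for DUSP1, 0.92 ± 0.40 for DUSP5 and 1.73 ± 0.35 for DUSP10, again positive in 3 of 3. The departure of DUSP10 in siVPS37ABC (adjusted p = 0.128) was called with the replicate block (adjusted p = 0.00658) and with a pseudocount of 8 (1.39, adjusted p = 0.0463), and the adjusted p ranged from 0.00658 to 0.863 over 21 alternatives.

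The 7 genes did not share 1 pattern over the 9 groups. Pearson's r between group means of log2(TPM + 1), over 9 points that share the scaling and batches of all libraries, was 0.95 for DUSP1 with DUSP10, 0.93 for DUSP1 with DUSP5 and 0.92 for DUSP4 with DUSP5. DUSP16 had r of 0.85 with DUSP1, 0.88 with DUSP5 and 0.89 with DUSP10. DUSP7 ran the other way, with r of -0.86 with DUSP1 and -0.83 with DUSP5, while DUSP6 had r between 0.04 and 0.62 with the others. The genes most alike to DUSP1, DUSP5, DUSP10 and DUSP16, the called phosphatase genes that averaged at least 10 TPM, among 3789 genes whose group means span at least 0.5 on the log2 scale, were the transcription factor gene MAFK for DUSP5 (r = 0.988), the ubiquitin ligase gene RNF19B for DUSP1 (r = 0.976), the laminin gene LAMB3 for DUSP10 (r = 0.982) and SFN, which encodes a 14-3-3 protein, for DUSP16 (r = 0.973). Next came TM4SF1 and XBP1 for DUSP5, TMCO3 and SQSTM1 for DUSP1, RAB10 and TBC1D23 for DUSP10, and LONP1 and CHPF2 for DUSP16.

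The other genes of the pathway are set beside the 13.6% of all tested genes called higher and the 8.32% called lower in siVPS37ABC. The lists were chosen with earlier results of these data known, and EGR1 and FOSL1 are counted in 2 lists. These shares therefore serve as description, and a list count above them is no test of the list. Among 8 tested phosphatase and DUSP genes outside the set, 2 were higher and 1 lower in siVPS37ABC (median 0.02), counts near those shares. DUSP8, a JNK and p38 phosphatase, had a mean of 28.7 TPM in siVPS37ABC against 10.8 TPM in siCTRL (log2 1.31 ± 0.17, adjusted p = 4.24e-06). DUSP3, an atypical small phosphatase, had 29.7 TPM in siVPS37ABC against 19.0 TPM in siCTRL (0.60 ± 0.20, adjusted p = 0.0337), a call lost in 8 of 13 alternatives (adjusted p 0.0137 to 0.289). Among these were the omission of any siCTRL library and of siVPS37ABC replicates 1 or 2 (highest adjusted p = 0.137), quantile normalization, the library number term and NT in place of siCTRL. STYX, a catalytically inactive relative, was at 31.2 TPM in siVPS37ABC against 51.7 TPM in siCTRL (-0.72 ± 0.17, adjusted p = 0.00219). Against NT the difference of STYX was -0.15 and not called (adjusted p = 0.558, where 13 alternatives ranged from 0.000301 to 0.558).

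Among the kinases, 1 of 11 tested genes of the RAS, RAF, MEK and ERK list was higher in siVPS37ABC and 0 were lower (median 0.30). In this fit that is no more than those shares give. This was NRAS, a RAS protein, at 62.3 TPM in siVPS37ABC against 30.0 TPM in siCTRL (0.99 ± 0.16, adjusted p = 6.07e-05). With the replicate block 5 of the 11 were higher and with the library number in the model 6 of the 11, none being lower in either. Of all 6458 tested genes 1256 were called higher with the block and 1336 with the library number, against 880 without them. Under both, the share called higher was larger in the list than over all tested genes. Of 10 tested kinases of the JNK, p38 and ERK5 branches 0 were higher and 2 lower (median 0.10), MAPK14, which encodes the alpha form of p38 (-0.51 ± 0.18, adjusted p = 0.0376), and the upstream kinase gene MAP3K1 (-0.39 ± 0.13, adjusted p = 0.0296). Neither was called with the library number in the model (adjusted p = 0.305 for MAPK14 and 0.209 for MAP3K1), with only these groups in the model (adjusted p = 0.0839 and 0.161), or without siCTRL replicates 1 or 3 or siVPS37ABC replicates 1 or 2 (adjusted p at most 0.174 and 0.147). Against NT the difference of MAP3K1 was 0.16 (adjusted p = 0.383). Over 13 alternatives the adjusted p ranged from 0.00118 to 0.305 for MAPK14 and from 0.00741 to 0.383 for MAP3K1.

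Among RAS and ERK feedback inhibitors other than DUSP genes, 2 of 3 tested were higher, ERRFI1, an inhibitor of the EGF receptor (1.41 ± 0.27, adjusted p = 0.000476), and SPRY2, an inhibitor of receptor to RAS signalling (0.64 ± 0.21, adjusted p = 0.0322). SPRY2 lost its call in 5 of 13 alternatives (adjusted p 0.00149 to 0.189), among them the omission of siCTRL replicates 2 or 3 (adjusted p = 0.0607 and 0.189) and of siVPS37ABC replicates 2 or 3 (adjusted p = 0.0687 and 0.0934). In the list of ERK output genes 5 of 9 were higher and 2 lower (median 0.58). PLAUR, the urokinase receptor gene, was at 182 TPM in siVPS37ABC against 60.4 TPM in siCTRL (1.60 ± 0.17, adjusted p = 2.45e-07), PHLDA1 changed by 0.75 ± 0.16 (adjusted p = 0.000895) and the receptor kinase gene EPHA2 by 0.70 ± 0.16 (adjusted p = 0.00169). EGR1, an immediate early transcription factor gene that ERK activates, moved the other way, at 28.6, 15.4 and 13.6 TPM in siVPS37ABC against 198, 117 and 41.9 TPM in siCTRL (-2.38 ± 0.47, adjusted p = 0.000592). Its libraries did not overlap, and siCTRL replicate 3 was the lowest of the siCTRL libraries. The other genes of this list that were called, named after their values were seen, were FOSL1 and ETV5 (higher) and CCND1 (lower).

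Of 10 tested immediate early transcription factor genes, which include EGR1, 6 were higher and 1 lower (median 0.81). ATF3, a stress-induced factor, changed by 1.97 ± 0.27 (adjusted p = 5.71e-06), KLF6 by 1.76 ± 0.15 (adjusted p = 5.53e-09), JUND, a JUN family subunit of AP-1, by 1.25 ± 0.16 (adjusted p = 2.36e-06), and FOSL2, a FOS family subunit, by 1.01 ± 0.19 (adjusted p = 0.000262). In the EGF receptor family and its ligands 3 of 7 were higher and 0 lower (median 0.30): EGFR, the receptor itself (0.98 ± 0.13, adjusted p = 3.61e-06), and the ligand genes AREG (1.28 ± 0.31, adjusted p = 0.00367) and HBEGF (0.83 ± 0.22, adjusted p = 0.00859). Against NT neither ligand was called (AREG 0.54, adjusted p = 0.209, and HBEGF 0.58, adjusted p = 0.0603), and HBEGF was not called without siCTRL replicate 3 (0.68, adjusted p = 0.0577). The adjusted p ranged over 13 alternatives from 8.16e-05 to 0.209 for AREG and from 0.000359 to 0.0603 for HBEGF. In siVPS37AB the counts higher and lower in the order of these lists were 1 and 1, 1 and 0, 1 and 0, 1 and 0, 5 and 1, 5 and 1, and 3 and 0. The number of genes tested in each list was the same as in siVPS37ABC. Over all tested genes 11.2% were called higher and 3.61% lower in siVPS37AB.

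**Figure D5:**
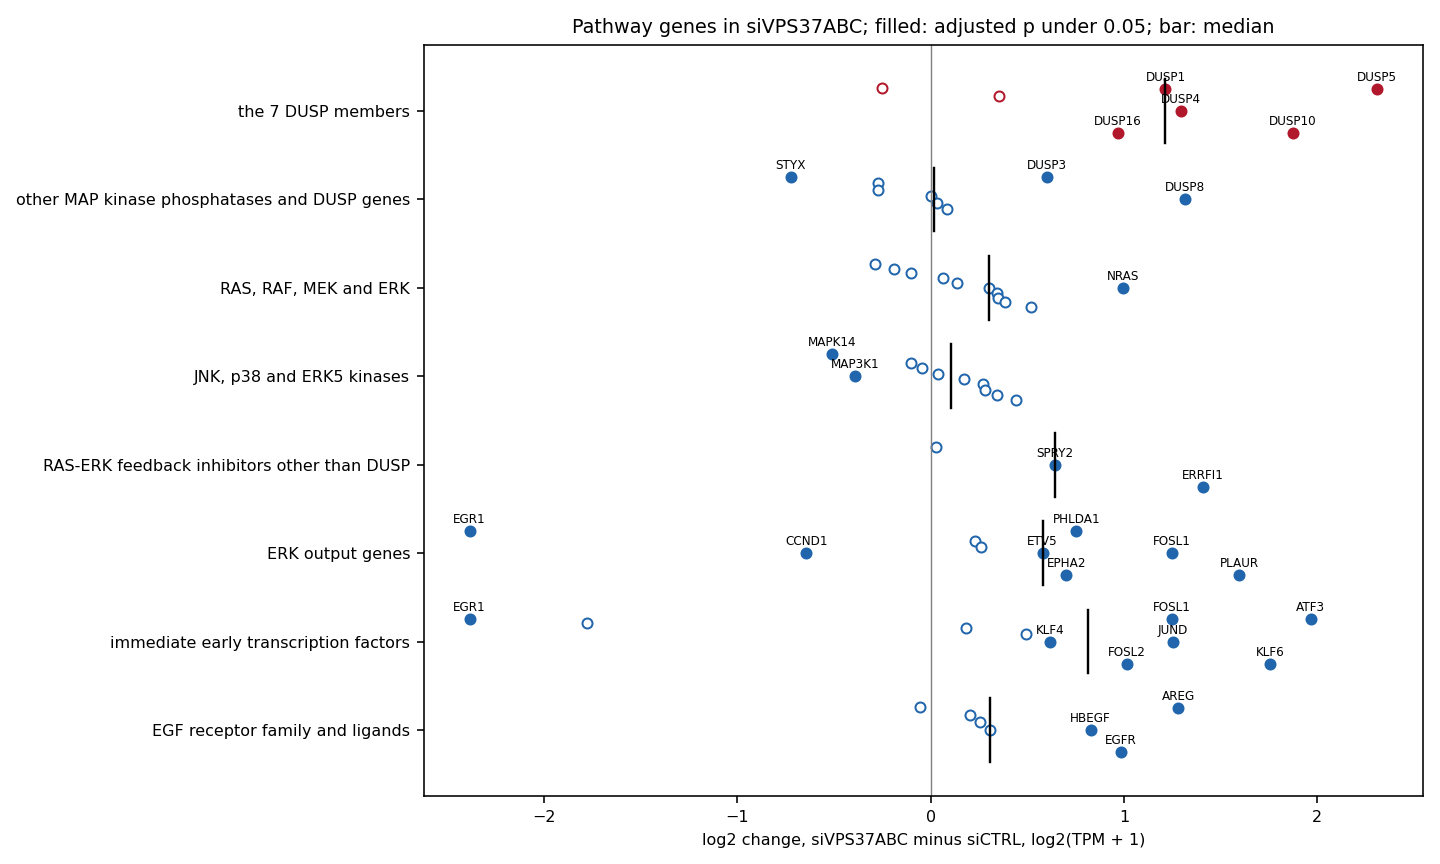
Log2 change in siVPS37ABC from siCTRL (horizontal axis) of the 7 phosphatase genes and of the tested genes of 7 pathway lists (vertical axis), filled and named where the adjusted p was under 0.05, with a bar at the median of each list. The medians are 1.21 for the 7 genes and between 0.02 and 0.81 for the lists, and EGR1 lies at -2.38. The genes and lists were chosen with earlier results of these data known, so the medians are descriptive.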

How the data were processed

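RNA from 27 DLD1 libraries was measured with an Ion AmpliSeq Transcriptome panel, per the labels' protocols. The deposited table gives 10470 genes in TPM, as read from the values, since the authors' columns each sum to 1000000. HTSeq 0.6.0, DESeq2 1.18.1 and hg19 are named in the submitters' processing notes, and their roles are not given in the sources used here. The table holds no raw counts, so the depth is unknown, no count test was run, and 2157 lines without an identifier were left out. The number of libraries limits the precision.

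Groups came from the labels. A group-means model was fitted to log2(TPM + 1) over all 27 libraries with limma 3.58.1 in R 4.3.3 (18 residual degrees of freedom, variance trend), with two-sided tests adjusted by Benjamini-Hochberg within each of 13 comparisons over the 6458 genes averaging 10 TPM or more. DUSP4, below that minimum, came from the same model without it. The procedure was tested on simulated data with independent libraries and no batch effect. That simulation does not cover the shared batches of these data. The labels give each replicate number a shared batch. Deviations from the group mean had a mean r of 0.355 over 108 pairs of libraries with the same number. The fit with the number as a block is therefore given where it changes a call. Over 216 pairs with different numbers the mean r was -0.175. That value largely follows from the 0.355, since deviations from a group mean cancel out within each group. Whether the replicates were separate cultures is given only by the word biological in the labels, and p-values measure the spread between these libraries.

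All 7 members are described. Of each of 7 pathway lists, up to 4 called genes were named, by smallest adjusted p in siVPS37ABC, and for each of 4 members the 3 genes with the highest r. EGR1 and FOSL1 stand in 2 lists. The members and lists were chosen with earlier results of these data known. Alternatives were the replicate block, no minimum, a pseudocount of 8, quantile normalization, a model of only the groups compared, a term for the library number, NT in place of siCTRL, and leaving out each library. Figures were drawn with matplotlib 3.10.9.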

Additional observations from a re-analysis of the deposited data

How the results depend on the processing

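Of the alternative values for the changes of single members, 448 kept direction and side of the threshold, 28 passed it newly, 25 lost it and 0 reversed. For the named list genes 217 kept both and 29 lost the call, and only MAP3K1 in siVPS37ABC reversed, at 0.16 against NT. The number of members called in siVPS37ABC and siVPS37AB against siCTRL, and in siVPS37ABC against siVPS37BC, stayed within 1.5 times under all alternatives run.

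With the replicate number as a block, 4 members were called in siVPS37AC, 3 in siVPS37A, 1 between siCTRL and NT, 6 in siVPS37ABC against siVPS37AC and 1 in the departure of siVPS37ABC from the sum. The block moved no other count of members by over 1.5 times. With the block the genes called of all tested numbered 2137 in siVPS37ABC (1417 without it), 1652 in siVPS37AB (956), 762 in siVPS37AC (284), 283 in siVPS37BC (83), 409 in siVPS37A (118), 607 in siVPS37B (111), 134 in siVPS37C (32) and 572 between siCTRL and NT (205). For siVPS37ABC against siVPS37AB, siVPS37AC and siVPS37BC they numbered 213 (67), 789 (281) and 1447 (776), and for the departures 33 and 18 (0 and 0).

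With only the groups compared in the model, 0 members were called in siVPS37AC and 0 in siVPS37ABC against siVPS37AB. With quantile normalization 1 was called in siVPS37AC. With the library number 2 were called in siVPS37A, 1 between siCTRL and NT and 5 in siVPS37ABC against siVPS37AC. Against NT 2 were called in siVPS37A, 2 in siVPS37BC, 2 in siVPS37B and 1 in siVPS37C. A pseudocount of 8 gave 1 in the departure of siVPS37ABC. Leaving out 1 library each gave 0 to 2 in siVPS37AC, 1 to 2 in siVPS37A and 0 to 1 in siVPS37ABC against siVPS37AB. The causes were not tested.

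Counts over all genes also moved by over 1.5 times under other settings. Without the minimum they were 1466 in siVPS37AB, 179 in siVPS37B, 317 between siCTRL and NT and 484 in siVPS37ABC against siVPS37AC. With the library number they were 1224 in siVPS37AC, 155 in siVPS37BC, 55 in siVPS37B, 60 in siVPS37C, 657 between siCTRL and NT, and 128 and 830 in siVPS37ABC against siVPS37AB and siVPS37AC. Against NT they were 910, 358, 458, 267 and 358 in siVPS37AC, siVPS37BC, siVPS37A, siVPS37B and siVPS37C. With only the groups compared they were 19, 8 and 2 in siVPS37A, siVPS37B and siVPS37C, 80 between siCTRL and NT and 17 in siVPS37ABC against siVPS37AB. For the departures quantile normalization gave 1 in siVPS37AB and a pseudocount of 8 gave 1 in siVPS37ABC. Leaving out 1 library gave as few as 591 in siVPS37AB, 110 in siVPS37AC, 32 in siVPS37BC, 50 in siVPS37A, 21 in siVPS37B, 18 in siVPS37C, 100 between siCTRL and NT, and 11, 121 and 503 in siVPS37ABC against the pairs in the order above. Quantile normalization moved the share of higher genes among those called by over 10 percentage points in siVPS37ABC, siVPS37AB, siVPS37AC, siVPS37A and siVPS37C, between siCTRL and NT, and in siVPS37ABC against siVPS37AB and siVPS37BC, with the splits given above. In siVPS37AC and siVPS37A the genes called higher then numbered 114 and 48 (198 and 77 without it), fewer than those called lower. The library number term moved the median of all genes to 0.11 in siVPS37ABC, 0.14 in siVPS37AB and 0.15 in siVPS37AC.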
